A study of Mus musculus with 35 samples.

Results

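The H3K27me3 domains described here are 1068 stretches of the mouse genome. At least a part of each was listed for histone H3 trimethylated at lysine 27 in all 5 macrophage libraries of that mark. The domains were found by joining listed regions of up to 100 kb wherever regions of the 5 libraries overlapped by at least 1 bp. Joined regions to which all 5 lists contributed were kept. Of 19267 listed H3K27me3 regions, 13701 were within the width limit, and these joined into 3294 regions. The domains are 32.4% of these 3294 and cover 58.1 Mb, and the other 2226 joined regions, held by 1 to 4 lists, cover 84.1 Mb. The domains were thus selected on the positions of the listed H3K27me3 regions, so every H3K27me3 value below is a description without a test.

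H3K27me3 is deposited by Polycomb repressive complex 2, whose catalytic subunit in most dividing cells is Ezh2, and it is read by Polycomb repressive complex 1. It marks broad stretches over silent developmental genes and is generally scarce where histone acetylation and RNA polymerase II are abundant. In macrophages, bacterial lipopolysaccharide (LPS) acts through Toll-like receptor 4, and the NF-κB subunits p50 and p65 and the stress-induced factor ATF3 are among the regulators it brings to chromatin.

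All libraries came from wild-type C57BL/6 mice, females of 8 to 12 weeks, whose bone marrow was grown into macrophages. H3K27me3 was mapped in macrophages stimulated with LPS and labelled 120 min, 240 min, 480 min and 60 min with a delay of 7 h, and in unstimulated macrophages, with 1 library each. The library with the delay has a labelled time of 480 min and a title that says 60 min. Acetylated histone H4 (H4ac, 8 libraries) was mapped at 60, 120 and 240 min of LPS and in unstimulated cells, with replicate letters A and B at each. RNA polymerase II (Pol II, 7 libraries) was mapped at 60 and 240 min (letters A and B), at 120 and 360 min (letter A) and in unstimulated cells (letter A). The subunit p50 (7 libraries) was mapped at 60 min of LPS in 4 libraries and in 3 unstimulated ones, p65 (5 libraries) at 60 and 120 min in 4 libraries and in 1 unstimulated one, and ATF3 in 3 libraries at 240 min of LPS. The labels do not tie replicates to separate mice or dishes, and the p-values below therefore speak only of the spread among libraries, some or all of which may be technical.

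Each library is a list of regions with a score. Read counts are not part of the lists, the depth of sequencing is unknown, and absence from a list is only that. Lists held 15256 to 28522 regions for H4ac, 2948 to 7728 for Pol II, 2687 to 4707 for H3K27me3, 1257 to 3954 for ATF3, 324 to 1378 for p50 and 255 to 2285 for p65. Cells were measured in bulk, so a mark present in fewer cells and a weaker mark in every cell cannot be told apart. The identity of the cells was not checked against marker genes, and no gene is named, because the gene annotation at hand is of a different build from the mm9 coordinates of the lists.

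The domains were broad. Their median width was 41.4 kb, the middle range of widths (25th to 75th percentile) was 15.8 to 79.5 kb, and the widest spanned 383.59 kb at chr1:183201021-183584610. Only 8 domains were at most 2 kb wide, while 138 exceeded 100 kb and held 36.4% of the domain bases. Domains were wider than the other joined regions, whose median was 25.5 kb. Median width was 22.1 kb for regions in 1 list, 27.3 kb in 2, 27.1 kb in 3 and 29.4 kb in 4. Width and the number of lists are not independent under the joining rule, since each further list can widen a joined region.

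**Figure D1:**
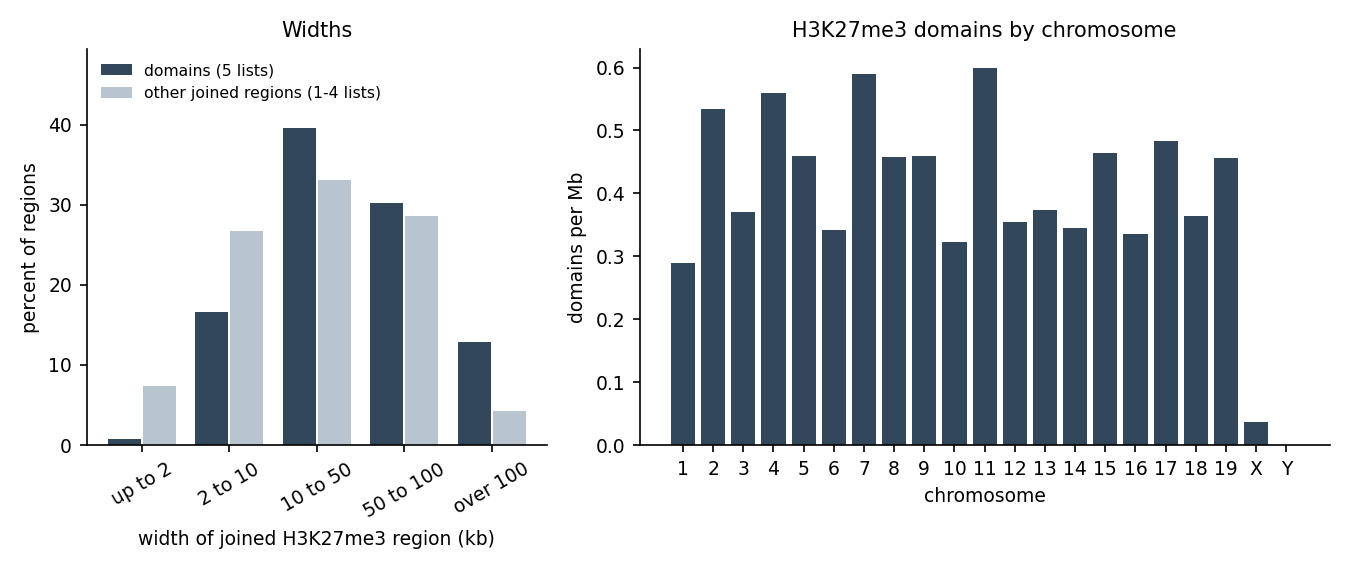
Left, the percent of joined H3K27me3 regions in each width class (kb) for the domains (dark bars) and for the other joined regions (pale bars). Right, domains per Mb of each chromosome, with X at 0.036 and chromosome 11 at 0.599, the lowest of those with any domain and the highest.

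Just outside the rule lay 395 regions held by 4 lists. The missing list was LPS 120 min in 241 of them and LPS 240 min in 116, against 11, 16 and 11 for the unstimulated, the 480 min and the delayed library. The 120 and 240 min lists were also the shortest, with 2687 and 2945 regions. Leaving out the 120 min list would give 1329 domains, and leaving out the 240 min list 1194. Just inside the rule, the domain with the fewest bases in any list was chr16:45352951-45353270, of which the LPS 120 min list covered 140 bp.

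The 5 lists did not cover the same bases of a domain. Of all domain bases, 71.9% were covered in unstimulated cells, 64.7% at 120 min, 64.3% at 240 min, 72.1% at 480 min and 74.1% in the delayed library. All 5 lists together covered 41.0%, and 17.5% lay under a single list. Scores of the domains ranked alike in every pair of lists, with Spearman correlations across domains of 0.839 to 0.907 in 10 pairs, which is a description over domains of shared chromatin and not over replicates. Regions wider than 100 kb, left out by the limit, contained 729 of the 1068 domains in at least 1 list and 137 in all 5.

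Domains lay on every autosome at 0.430 per Mb on average and were scarcest on the X chromosome. Chromosome 11 held 73 domains (0.599 per Mb), chromosome 7 held 90 (0.590 per Mb) and chromosome 4 held 87 (0.559 per Mb). Chromosome 1 was the sparsest autosome, with 57 domains at 0.289 per Mb. The X chromosome held 6 at 0.0360 per Mb, and the short part of Y that the lists reached held none. Regions over 100 kb are left out of these counts, which therefore do not give the full extent of H3K27me3 on a chromosome. The X chromosome also had the fewest merged H4ac regions per Mb apart from Y, 4.83 against 7.81 to 13.2 on the autosomes. The median gap between neighbouring domains was 697 kb, but 143 of 1048 gaps were under 100 kb. Runs of 5 domains separated by such short gaps lay at chr5:30422151-31119290 and chr7:19642981-20112530.

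Of the 6 domains on X, 4 stood apart and are given separately wherever they matter. They lie next to each other near the end of the chromosome, at chrX:166415821-166446810, and cover 30.8 kb. Within them the H4ac lists placed 23 to 39 separate regions each and the Pol II lists 11 to 26 each. This amounts to 9.50% of all H4ac regions and 27.1% of all Pol II regions inside the domains, summed over libraries, and for p65 to 1.56% to 44.0% of a library's regions there. Every target was listed in this stretch in every one of its libraries. Whether this comes from the chromatin or from the mapping of reads was not tested and cannot be told from region lists. The other X domains, chrX:90519581-90548840 and chrX:138154031-138161750, held no region of any other target of up to 10 kb, or 100 kb for Pol II.

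H4ac, an acetylation found at active promoters and enhancers, was depleted in the domains relative to the DNA beside them. Flanks were taken as stretches of the width of the domain on either side, without any base of a joined H3K27me3 region, and a region was counted where its midpoint lay. Over the 8 H4ac libraries the lowest, median and highest densities were 3.48, 5.27 and 7.95 regions per Mb in domains, against 13.6, 19.5 and 25.5 per Mb in flanks. The ranges did not overlap, and the domains were lower in 8 of 8 libraries. Densities averaged 5.51 ± 1.70 per Mb in domains and 19.6 ± 4.54 per Mb in flanks (SD, n = 8), a difference of -14.0 ± 2.92 (exact two-sided sign-flip permutation test over libraries, p = 0.00781, the smallest that 8 libraries allow, adjusted p = 0.0312 over 10 tests). The ratio of domain to flank lay between 0.243 and 0.317 in every library. Over all chromosomes up to their last listed region, H4ac had 4.16 to 8.21 regions per Mb. The flanks were thus denser than the whole span, and the domains lay closer to it.

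Pol II, which transcribes protein-coding genes, showed the same direction. The unstimulated library had 1.10 regions per Mb in domains against 6.92 in flanks. The 6 LPS libraries had 0.775, 1.21 and 1.69 per Mb (lowest, median, highest) in domains, against 2.90, 4.85 and 7.46 in flanks. No library overlapped between the 2 places. Over the whole span Pol II had 0.767 to 2.26 regions per Mb, again closer to the domains than to the flanks. Over all 7 libraries the means were 1.24 ± 0.312 per Mb in domains and 5.23 ± 1.57 per Mb in flanks (SD, n = 7), a difference of -3.99 ± 1.39 (exact sign-flip permutation test, p = 0.0156, adjusted p = 0.0312). With any 1 Pol II library left out, the adjusted p was 0.0625, the exact permutation p being then at the smallest that 6 libraries allow.

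Both differences from flanks were as large without the X chromosome. With only the 4 domains at its end left out, the difference from flanks was -14.6 per Mb for H4ac (p = 0.00781) and -4.33 per Mb for Pol II (p = 0.0156), with an adjusted p of 0.0521 for both (exact permutation tests). On autosomes alone H4ac had 4.99 ± 1.74 regions per Mb in domains against 19.5 ± 4.53 in flanks, a ratio of means of 0.255, and Pol II had 0.906 ± 0.240 against 5.22 ± 1.57, a ratio of 0.173 (exact sign-flip permutation tests, adjusted p = 0.0391 for both). With no width limit on the H4ac and Pol II regions, the difference from flanks was -7.29 per Mb for H4ac (p = 0.00781) and -2.01 per Mb for Pol II (p = 0.0156), with an adjusted p of 0.0521 for both, so neither call was kept (exact permutation tests). By percent of bases covered the adjusted p was 0.0781 for both (exact permutation tests). The direction did depend on the width limit of the H3K27me3 regions. With a limit of 10 kb the rule left 333 domains, and the difference from flanks turned to 5.09 per Mb for H4ac (adjusted p = 0.0893) and to 7.63 per Mb for Pol II (exact permutation test, adjusted p = 0.0391). With that limit on autosomes alone it was -8.55 per Mb for H4ac (p = 0.00781, adjusted p = 0.0781) and -1.25 per Mb for Pol II (p = 0.0312, adjusted p = 0.156, exact permutation tests).

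**Figure D2:**
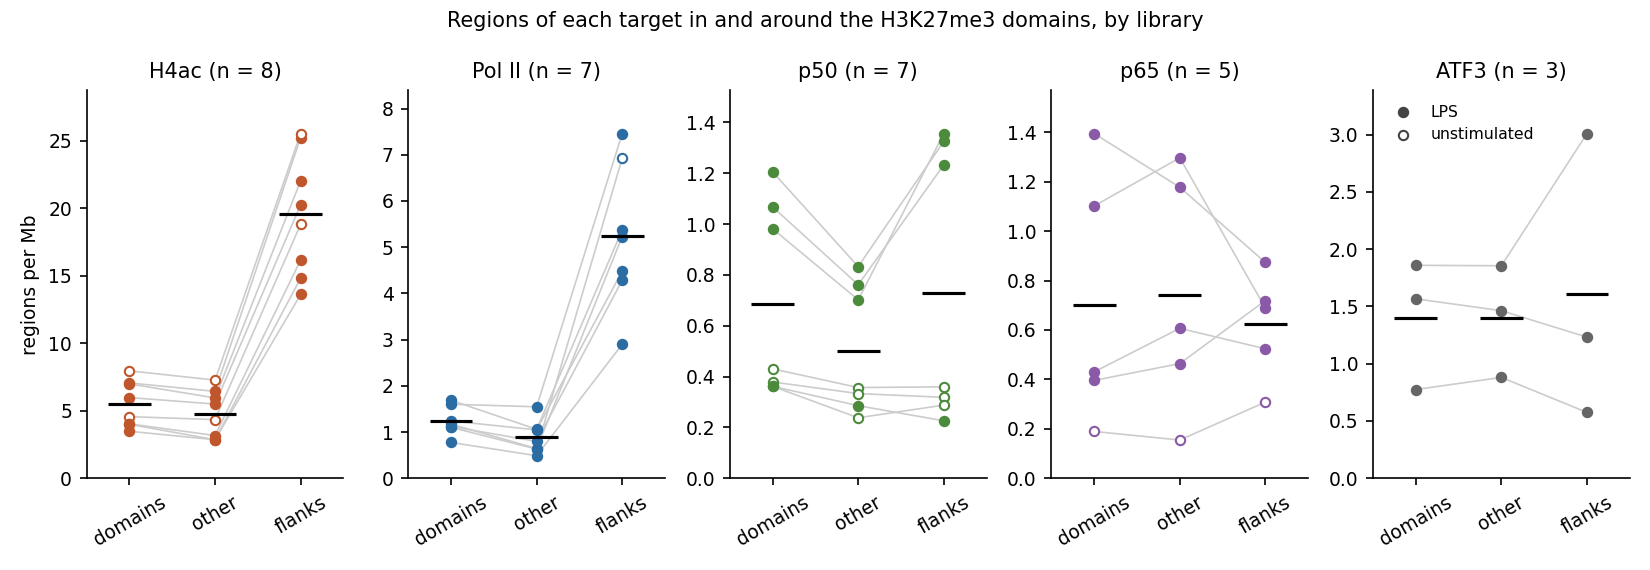
Regions per Mb of H4ac, Pol II, p50, p65 and ATF3 in the domains, in the other joined H3K27me3 regions and in the flanks, with all domains included. Each point is a library (filled, LPS; open, unstimulated), a grey line joins the values of a library and a black bar is the mean. H4ac and Pol II points of the domains lie below those of the flanks in every library, and the factors show no such separation.

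The density of H4ac was lower inside the domain edge than in the first 10 kb outside it. Without the 4 domains at the end of X, H4ac averaged 20.7 ± 4.94 regions per Mb in the first 10 kb outside the edge, 4.62 ± 2.54 in the first 5 kb inside and 3.67 ± 1.78 from 5 to 10 kb inside (SD, n = 8). Pol II averaged 3.82 ± 1.09 per Mb in the first 10 kb outside, 1.30 ± 0.951 in the first 5 kb inside and 0.651 ± 0.264 from 5 to 10 kb inside (SD, n = 7). The X stretch weighed on the rim in particular: with it included, the first 5 kb inside held 7.28 H4ac and 3.00 Pol II regions per Mb. Farther in, H4ac did not keep falling, with 6.84 ± 1.86 per Mb at 20 to 30 kb and 3.97 ± 1.47 at 40 to 50 kb from the edge. Only wider domains reach the deeper steps, which held 4.03 Mb at 40 to 50 kb against 9.93 Mb in the first 5 kb. Distance and domain width are thus mixed in these steps. Outside, H4ac stayed between 16.4 and 20.7 per Mb out to 100 kb. Pol II averaged 6.12 ± 2.03 per Mb at 20 to 30 kb outside and 5.29 ± 1.66 at 10 to 20 kb, both above its mean in the first 10 kb outside. The outer steps are 10 kb wide, and no test was run on these steps.

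**Figure D3:**
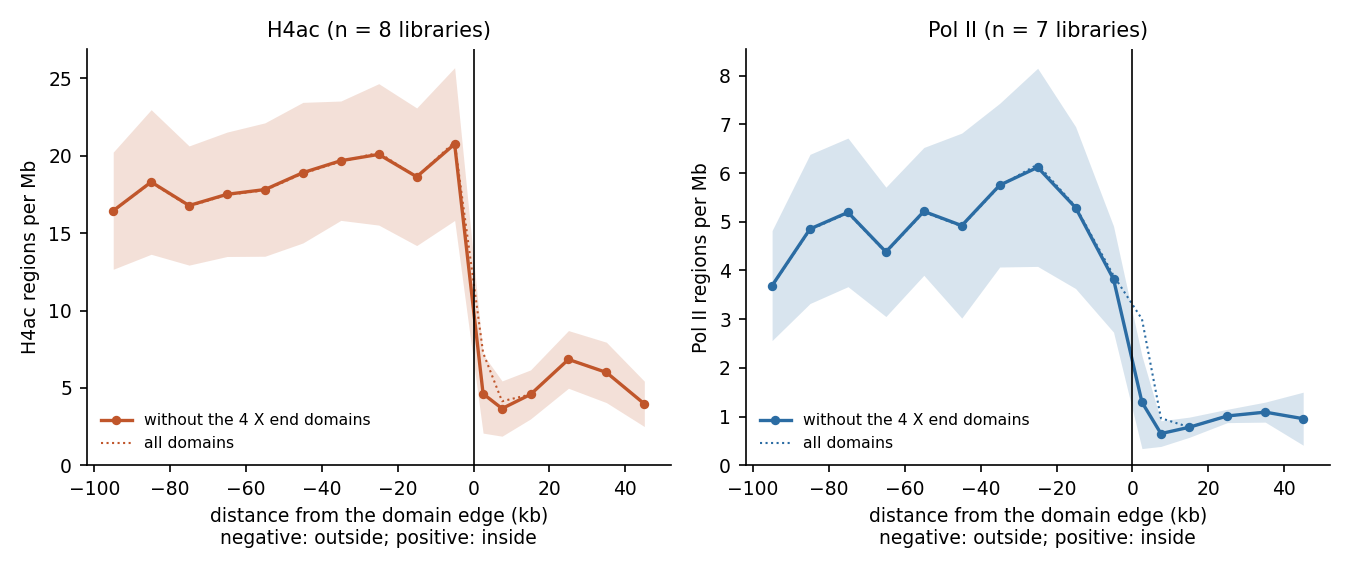
Mean H4ac (left) and Pol II (right) regions per Mb against the distance from the domain edge in kb, outside (negative) and inside (positive). Solid lines leave out the 4 domains at the end of X, shaded bands are ± 1 SD over 8 H4ac or 7 Pol II libraries, and dotted lines include all domains. H4ac drops across the edge to 4.62 per Mb in the first 5 kb inside, and the dotted lines rise above the solid ones only near the edge.

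Within the domains, both marks of activity thinned out as more H3K27me3 lists covered the base. Without the X stretch, H4ac averaged 7.96 regions per Mb where 1 list covered the base and 6.62, 5.86, 5.10 and 2.83 where 2, 3, 4 and 5 lists did. Pol II averaged 1.46, 1.62, 1.22, 0.972 and 0.300 per Mb over the same 5 steps. Bases under all 5 lists had a lower density than bases under 1 list in 8 of 8 H4ac and 7 of 7 Pol II libraries. The factors showed no steady trend over the steps. ATF3 averaged 1.51, 1.21, 1.40, 1.39 and 1.18 per Mb, and was lower under 5 lists than under 1 in 3 of 3 libraries. p50 averaged 0.450, 0.966, 0.309, 0.477 and 0.708 per Mb, and was higher under 5 lists than under 1 in 6 of 7 libraries. p65 averaged 0.374, 0.748, 0.757, 0.549 and 0.646 per Mb, and was higher under 5 lists than under 1 in 3 of 5 libraries. No test was run on these steps.

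**Figure D4:**
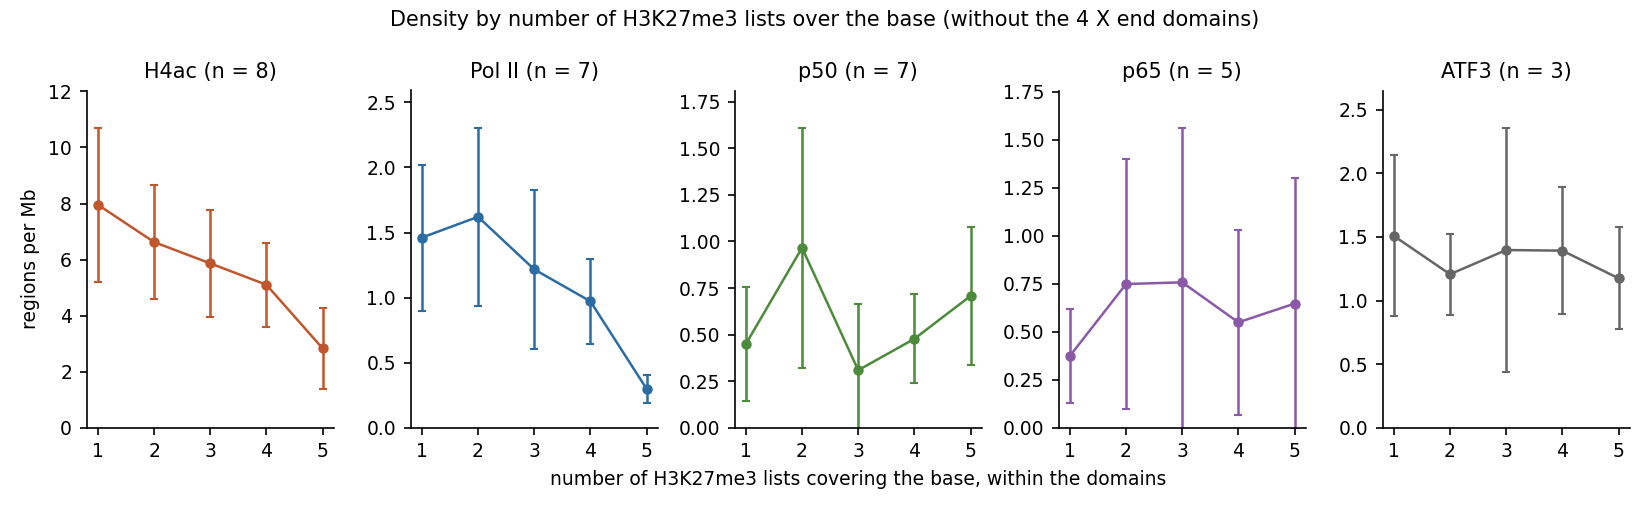
Regions per Mb of each target against the number of H3K27me3 lists, 1 to 5, that cover the base within the domains, without the 4 domains at the end of X. Points are means over libraries and bars are ± 1 SD. H4ac falls from step to step, to 2.83 per Mb under 5 lists, and Pol II falls from 2 lists on, to 0.300 per Mb.

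Set against the other joined H3K27me3 regions, the comparison changed with the domains and bases counted. Over whole regions H4ac averaged 5.51 ± 1.70 per Mb in domains and 4.80 ± 1.73 per Mb in other regions (SD, n = 8), higher in 8 of 8 libraries (exact sign-flip permutation test, adjusted p = 0.0312). Pol II averaged 1.24 ± 0.312 per Mb in domains and 0.887 ± 0.361 per Mb in other regions (SD, n = 7), higher in 7 of 7 (adjusted p = 0.0312, exact permutation test). Without the 4 domains at the end of X the difference was 0.19 per Mb for H4ac (adjusted p = 0.215) and 0.0186 per Mb for Pol II (adjusted p = 0.996, exact permutation tests). On autosomes alone, which also drops the other regions and flanks on X, it was 0.318 per Mb for H4ac, higher in 7 of 8 libraries (adjusted p = 0.0391), and 0.0536 per Mb for Pol II (adjusted p = 0.703, exact permutation tests). Counting only the domain bases under all 5 lists turned both round, to -1.63 per Mb for H4ac and -0.347 per Mb for Pol II (exact permutation tests, adjusted p = 0.0312 for both). The other regions were kept whole there, with their bases under 1 list included, so the 2 sides are unlike sets of bases.

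The NF-κB subunit p50 lacks a transactivation domain of its own and can bind DNA as a homodimer. Its density in the domains showed no difference from flanks with an adjusted p below 0.05. In unstimulated macrophages its 3 libraries had 0.430, 0.379 and 0.362 regions per Mb in domains, against 0.360, 0.318 and 0.288 in flanks. At 60 min of LPS the libraries B, A, C and D had 1.07, 1.21, 0.981 and 0.362 per Mb in domains, against 1.23, 1.33, 1.36 and 0.226 in flanks. Library D of the LPS group was thus as low as the unstimulated libraries, and its list of 324 regions was the shortest of all p50 lists. The mean difference from flanks was -0.0455 ± 0.183 per Mb (exact sign-flip permutation test, adjusted p = 0.938). With an H3K27me3 width limit of 50 kb on autosomes alone it was -0.222 per Mb (exact permutation test, p = 0.0156, adjusted p = 0.0521). Against the other H3K27me3 regions p50 was higher in the domains in 7 of 7 libraries, at 0.684 ± 0.381 against 0.501 ± 0.253 per Mb (exact permutation test, adjusted p = 0.0312). Without the X stretch that difference was 0.114 per Mb with an exact permutation p of 0.0156 and an adjusted p of 0.0521, and on autosomes alone it was 0.139 per Mb with an adjusted p of 0.0391.

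The subunit p65, which carries a transactivation domain, gave values that split by replicate letter. Libraries LPS 60 min A and LPS 120 min C had 1.39 and 1.10 regions per Mb in domains, against 0.873 and 0.688 in flanks. Libraries of letter X had 0.396 at 60 min, 0.430 at 120 min and 0.189 unstimulated in domains, against 0.719, 0.524 and 0.308 in flanks. The 2 sets of letters thus moved in opposite directions, and with 5 libraries the exact sign-flip permutation test cannot go below p = 0.0625 (here p = 0.75 against flanks and 0.688 against other regions). The lists also differed outside the domains. There 3.34% of regions of library A and 8.00% of those of C touched H4ac regions held by at least 2 libraries. For letter X the shares were 81.8% at 60 min, 74.7% at 120 min and 64.8% unstimulated. ATF3, a repressor and activator of the ATF/CREB family, had 1.86, 0.775 and 1.57 per Mb in domains in libraries A, B and C, against 3.01, 0.575 and 1.23 in flanks. Its 3 libraries allow no p below 0.25. Outside the domains 67.2%, 8.65% and 8.82% of ATF3 regions of A, B and C touched such H4ac regions. The p65 and ATF3 lists are thus not alike in kind, and the cause was not tested.

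Counted by domain, H4ac was the target listed most often, but it also had the most libraries and the longest lists. In 323 of 1068 domains (30.2%) at least 2 H4ac libraries had a region, where 24.9% of all 3294 joined H3K27me3 regions did, and in 74 domains (6.93%) every H4ac library did, where 4.61% of all did. Pol II was listed by at least 2 libraries in 107 domains (10.0%, against 7.26% of all joined regions) and by every library in 15 (1.40%, against 0.911%). Domains are wider than the other regions, so the shares were also taken within width classes. Of domains up to 2 kb wide 50.0% held H4ac in at least 2 libraries, against 24.4% of other regions of that width, and of those of 2 to 10 kb 8.47% did, against 5.71%. Of domains of 10 to 50 kb 19.7% held H4ac in at least 2 libraries, against 19.3% of other regions of that width, and of those over 100 kb 48.6% did, against 51.6%. In the class of 50 to 100 kb the shares were 47.7% of domains and 36.4% of other regions.

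Of the domains 501 (46.9%) held no region of any other target in any library, and they had a median width of 23.2 kb. Only regions of up to 10 kb, or 100 kb for Pol II, were counted. Among the other joined regions 1303 (58.5%) were empty in this sense. Pol II was listed in 23.2% of the 323 domains with H4ac and in 4.30% of the 745 without it, each by at least 2 libraries. In total 75 domains held both, 248 held H4ac alone, 32 held Pol II alone and 713 neither. Domains with both had a median width of 83.0 kb, and those with neither 29.3 kb, so width moves with this pairing and its part was not tested. Even where every H4ac library was listed, H4ac regions of up to 10 kb took up a small part of the domain. The median was 3.82% of its bases over 74 domains and the highest value 93.2%, at the end of X. Wider H4ac regions were left out by the width limit, so the full H4ac cover may be larger.

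Individual domains show the range. The domain that ranked first by score in all 5 lists, chr7:151550911-151660890, was covered to 93.4% in unstimulated cells, 86.5% at 120 min, 76.3% at 240 min, 99.5% at 480 min and 96.6% in the delayed library. It held no region of any other target within the width limits of 10 kb, or 100 kb for Pol II. Within the same limits the widest domain, chr1:183201021-183584610, held neither H4ac nor Pol II, but ATF3 in 3 of 3 libraries and p65 in 1 of 5. No merged ATF3 region with its midpoint there was held by all 3 libraries, and ATF3 covered 0.0521% of its bases. The part of its width in this was not tested.

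At the other end, chr14:55046681-55065330, of 18.65 kb, held H4ac over 63.2% and Pol II over 71.3% of its bases (means over libraries), in 7 of 8 and 7 of 7 libraries. Its H3K27me3 lists still covered 90.2% of it in unstimulated cells, 92.0% at 120 min, 99.1% at 240 min, 66.0% at 480 min and 98.3% in the delayed library. In chr1:36309931-36381790 all 8 H4ac and all 7 Pol II libraries had regions. The H3K27me3 lists covered 7.28% in unstimulated cells, 100% at 120 min, 34.8% at 240 min, 51.7% at 480 min and 10.1% in the delayed library. All 5 lists together covered 6.53% of it. These values leave out H3K27me3 regions wider than 100 kb, which contained this whole domain in 2 of the 5 lists.

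The regions held by every p50 library included spots deep inside H3K27me3. Of 44 merged p50 regions held by all 7 p50 libraries, 8 (18.2%) had their midpoint in a domain, and 6 of these 8 overlapped regions of all 5 H3K27me3 lists. Among regions held by at least 1 p50 library the share in domains was 5.00% of 2478, and among those held by at least 2 it was 5.82% of 997. Counted by domain, p50 was held by every library in 8 domains (0.749%, against 0.364% of all joined regions) and by at least 2 in 55 (5.15%, against 4.25%). Of the 8 merged p50 regions in domains 3 touched an H4ac region held by at least 2 libraries, against 91.7% of the other 36 regions held by all p50 libraries.

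These p50 spots differed in what surrounded them. The 170 bp region chr8:13964481-13964650 lay in domain chr8:13948981-14016070, of which the 5 H3K27me3 lists covered 94.1% to 98.9%. No library of H4ac, p65 or ATF3 had a region of up to 10 kb in that domain, and no Pol II library one of up to 100 kb. Wider regions were not counted. At chr5:115637791-115638000 the domain of 70.76 kb ranked among the best by score (mean rank 11.8) and held H4ac in 1 of 8 libraries. Wider p50 regions lay at chr10:83856931-83865080 (8150 bp when merged over libraries), chr8:73383951-73389950 and chr5:31393611-31398120. In contrast, at chr7:31893061-31896330 the p50 region overlapped H4ac in 7 libraries and 2 of the 5 H3K27me3 lists.

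p65 was listed by at least 2 libraries in 38 domains (3.56%, against 3.37% of all joined regions) and ATF3 in 35 (3.28%, against 2.55%). Every p65 library was listed in 1 domain (0.0936%, against 0.0304% of all joined regions) and every ATF3 library in 5 (0.468%, against 0.334%). The only p65 region held by every p65 library, chrX:166434091-166439000, lay in the stretch at the end of X, as did both ATF3 regions in domains that every ATF3 library held as one merged region. Of the 8 domains up to 2 kb wide, 6 had p65 in at least 2 libraries and 3 had H4ac in every library, of which 2 are in the X stretch. Chosen after its values were seen, chr17:3081401-3082880, of 1.48 kb, is the remaining one, with H4ac over 78.2% of its bases and p50 in 3 libraries.

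The share of a target's regions that fell inside the domains was compared between LPS and unstimulated cells. For scale, the domains make up 2.20% of all chromosomes up to their last listed region. None of the 4 comparisons could reach p = 0.05, since the smallest p their exact permutation tests allow is 0.0714 for H4ac, 0.286 for Pol II, 0.0571 for p50 and 0.4 for p65. H4ac had 1.75% to 2.31% of its regions inside in the 6 LPS libraries, against 1.65% and 2.13% in the 2 unstimulated ones (exact two-sided permutation test, p = 0.571). p50 had 6.28%, 5.92%, 5.17% and 6.82% with LPS, against 6.76%, 5.53% and 6.34% unstimulated (p = 0.743, exact permutation test). Pol II had 1.56% to 2.22% in its 6 LPS libraries, all above the single unstimulated value of 1.26%, a difference larger than the SD of 0.244 among the LPS libraries (exact permutation p = 0.286). p65 had 3.67%, 3.14%, 4.85% and 5.68% with LPS, against 5.39% unstimulated (exact permutation p = 0.8). The adjusted p was 0.8 for all 4 targets. Without the X stretch the Pol II difference shrank to 0.372 percentage points, against 0.689 with it. As regions per Mb of the domains, the unstimulated Pol II library, at 1.10, lay within the LPS range of 0.775 to 1.69. A share also depends on the length of the whole list.

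**Figure D5:**
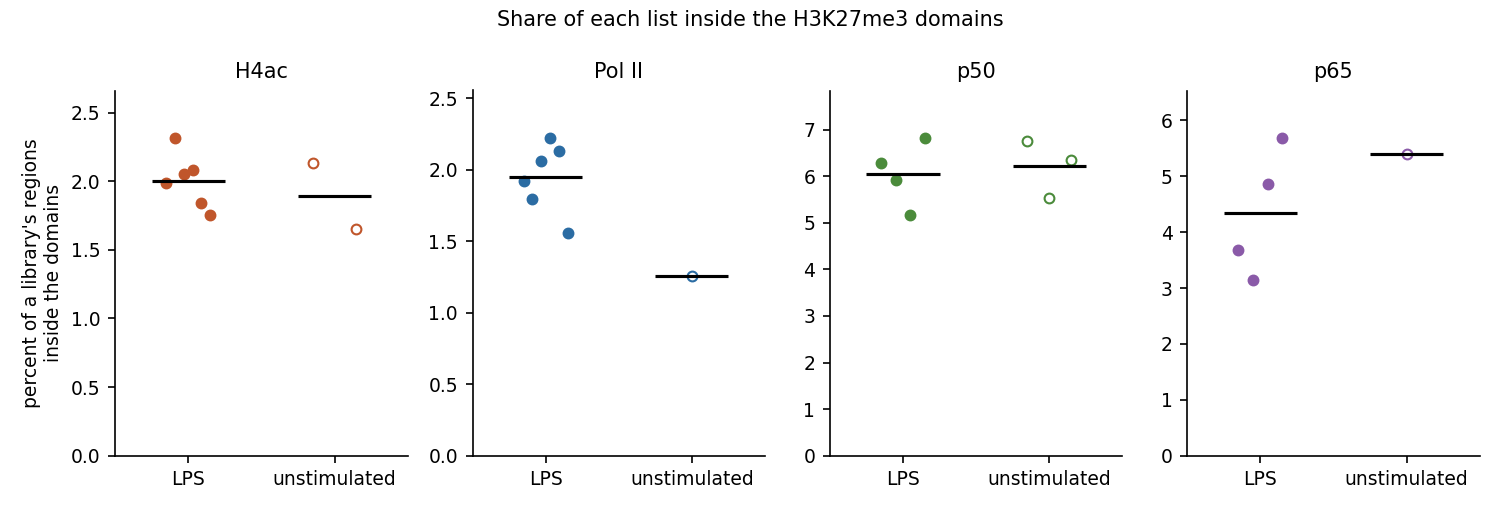
Percent of the regions of each library with their midpoint inside the domains, for LPS (left, filled) and unstimulated (right, open) libraries of H4ac, Pol II, p50 and p65. Bars are group means. The groups overlap for H4ac, p50 and p65, and for Pol II the single unstimulated library, at 1.26%, lies below the 6 LPS libraries.

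Gains and losses of H4ac regions with LPS are given as counts, with the share among all H4ac regions beside them and no test. H4ac regions merged over libraries numbered 24406, of which 617 were in domains. Gained regions were those that all lists of a time point held and neither unstimulated list did, and lost regions the reverse. At 60 min 35 of 617 (5.67%) were gained, where 2.7% of all were, and 57 (9.24%) were lost, where 12.8% of all were. At 120 min 29 (4.70%) were gained against 3.85% of all and 80 (13.0%) were lost against 15.8%. At 240 min 29 (4.70%) were gained against 5.57% of all and 55 (8.91%) were lost against 11.1%. Since the 3 times share the unstimulated libraries, their counts are not independent.

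The spread of H4ac regions over libraries differed in these counts, again without a test. Of the 617 merged regions 13.1% were held by all 8 libraries, against 23.7% of those outside, and 30.5% by a single library, against 19.2% outside. Those held by all 6 LPS and neither unstimulated library numbered 5 inside the domains (0.810% of 617, against 0.918% of all): chr2:18720711-18722870, chr7:17487121-17497700, chr16:22143811-22145880, chr17:23781161-23791970 and chr17:34484071-34486230. Regions of the reverse kind, present without LPS in both libraries and in none of the 6 with LPS, numbered 36 (5.83%, against 7.42% of all).

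Few Pol II and p50 regions lay in the domains, and their gains and losses are given as counts without a test. Pol II regions were called by the rule for H4ac, with a single unstimulated list. Of 98 merged Pol II regions in domains 9 (9.18%) were gained at 60 min, against 7.08% of all 5971, and 23 (23.5%) were lost, against 29.5%. At 240 min 10 (10.2%) were gained against 8.63% of all and 22 (22.4%) were lost against 31.7%. For p50, gained meant held by at least 3 LPS lists and no unstimulated one, and lost meant held by at least 2 unstimulated lists and no LPS one. Of 124 merged p50 regions in domains 14 (11.3%) were gained, against 9.6% of all 2478, and 3 (2.42%) were lost, against 0.646%. A gained and a lost p50 region lay in the stretch at the end of X.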

How the data were processed

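Chromatin immunoprecipitation and single-end sequencing of 35 libraries (6 targets, 20 groups) gave 1 deposited region list per library, with position, scale number and the authors' score, on build mm9 per the submitters' processing notes. The score in the deposited lists was used only to rank regions within a list or to halve a list. The aligner, caller and cut-offs were not given in the sources used here. Lists were taken as made per library, and coordinates are 1-based.

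Lists were nested, so regions up to 10 kb (H4ac, p50, p65, ATF3) or 100 kb (Pol II, H3K27me3) were kept and overlapping regions of a list joined. Density was the number of joined regions with their midpoint inside, per Mb. Flanks were clipped to the last listed region of a chromosome. Densities were compared by an exact two-sided sign-flip permutation test over libraries (10 tests), and LPS shares by an exact two-sided permutation test (4 tests), both with Benjamini-Hochberg adjustment and a threshold of 0.05. Domains were named by fixed rules: the 5 widest, the 5 best by mean score rank, and up to 5 with most libraries of each target, plus those up to 2 kb. Members, lists and rules were chosen with earlier results of these data known. Interval arithmetic was checked against bedtools 2.31.1 and tested on simulated data. Python 3.11.15, numpy 2.4.6 and pandas 2.3.3 were used. Alternatives covered width limits, overlap rules, score ranks, replicate letters as blocks and each library left out. Further ones, chosen after seeing the data, left out narrow domains, the sex chromosomes or the 4 domains at the end of X, or kept only domain bases under all 5 lists. No sequence is shown because no genome of build mm9 was at hand.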

Additional observations from a re-analysis of the deposited data

Results flagged for a closer look

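The share of p50 regions inside the domains moved in opposite directions between replicate letters. LPS minus unstimulated, it was -0.835 percentage points for letter A and -0.360 for letter C, against 0.474 for letter D. With 1 LPS and 1 unstimulated library per letter, the difference between letters was not tested. The LPS library of letter D had the shortest p50 list. None of 15 sets of libraries examined for an outlying library held one, where chance would give about 1 in 20.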

How the results depend on the processing

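Differences below are regions per Mb, domains minus the place named, unless given as shares. The number of domains was 333 with a width limit of 10 kb, 555 where a list had to cover 50% of the joined region, 691 with the better-scored 50% of each H3K27me3 list, and 1095 to 1329 with 1 H3K27me3 list left out. The limit of 10 kb turned the difference from flanks to 5.09 for H4ac, 7.63 for Pol II, 2.49 for p50 and 3.77 for ATF3, and that from other regions to 1.87 for p65. On autosomes with that limit the differences from flanks were -8.55 for H4ac, -1.25 for Pol II, 0.649 for p50 and 0.960 for ATF3, and those from other regions 0.100 for H4ac, 0.235 for Pol II and 0.439 for p50, none past the threshold. With a limit of 50 kb, p50 and p65 differed from other regions by 0.278 (exact permutation test, adjusted p = 0.0625) and 0.0886, and ATF3 from flanks by 0.0118. On autosomes with that limit the differences from flanks were -15.1 for H4ac, -4.15 for Pol II, -0.222 for p50 and -0.0218 for p65. The adjusted p was 0.0521 for H4ac, Pol II and p50 (exact permutation tests). Differences from other regions were -0.257 for H4ac, -0.102 for Pol II, 0.161 for p50 and -0.134 for ATF3.

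Counting any overlap as inside gave 0.124 for p50 and -0.0670 for ATF3 against other regions. By percent of bases covered, in percentage points, H4ac, Pol II, p50, p65 and ATF3 differed from other regions by 0.0190, 0.0216, 0.00705, 0.0130 and -0.00156, and H4ac, Pol II, p50 and ATF3 from flanks by -2.91, -6.10, 0.00637 and 0.00454, while the p65 share with LPS minus unstimulated turned to 3.35. None of these density calls was kept (adjusted p = 0.0781 for H4ac and Pol II against flanks, exact permutation tests). Without a width limit on the other targets, H4ac, Pol II and p50 differed from flanks by -7.29, -2.01 and 0.00264, and H4ac, Pol II, p50 and ATF3 from other regions by 0.188, 0.0713, 0.106 and -0.0348. None of these calls was kept either, with an adjusted p of 0.0521 for H4ac and Pol II against flanks, where the differences shrank from -14.0 and -3.99 (exact permutation tests). A limit of 1 kb turned the H4ac share difference to -0.0518 percentage points. With the better-scored 50% of each list, Pol II and ATF3 differed from other regions by 0.233 (exact permutation test, adjusted p = 0.0938) and -0.0112, and the p50 share difference was 0.216.

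Of the alternatives chosen after seeing the data, bases under all 5 lists gave -1.63 for H4ac, -0.347 for Pol II and -0.169 for ATF3 against other regions, and 0.0320 for p50 against flanks. Autosomes alone gave 0.318 for H4ac and 0.139 for p50 (adjusted p = 0.0391 for both, exact permutation tests), 0.0536 for Pol II and -0.0658 for ATF3 against other regions and -0.00944 for p65 against flanks. Without domains up to 2 kb, ATF3 differed from other regions by -0.0163, and the p50 share difference was 0.0785. Without the 4 domains at the end of X, H4ac, Pol II and p65 differed from flanks by -14.6, -4.33 and -0.00920, and H4ac, Pol II, p50 and ATF3 from other regions by 0.190, 0.0186, 0.114 and -0.102. The adjusted p of 0.0521 for the H4ac and Pol II difference from flanks follows from the adjustment, since each exact permutation p stayed at the smallest its libraries allow.

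With 1 library left out, differences from flanks ranged from -14.6 to -13.5 for H4ac, -4.30 to -3.68 for Pol II, -0.0757 to 0.00931 for p50, -0.0304 to 0.181 for p65 and -0.475 to 0.267 for ATF3. Differences from other regions ranged from 0.649 to 0.780 for H4ac, 0.310 to 0.405 for Pol II, 0.151 to 0.205 for p50, -0.101 to 0.00194 for p65 and -0.0507 to 0.0539 for ATF3. Share differences ranged from -0.128 to 0.352 percentage points for H4ac, 0.635 to 0.767 for Pol II, -0.503 to 0.131 for p50 and -1.51 to -0.657 for p65. The H4ac calls held each time, and the Pol II and p50 calls each had an adjusted p of 0.0625. With the replicate letter as a block, the share differences were 0.112 for H4ac (p = 0.5) and -0.162 for p50 (p = 0.75, exact permutation tests), and no call changed. In the titles the LPS and unstimulated p50 libraries of letters A, C and D share a date within each letter, as do the H4ac libraries of letter B, while those of letter A do not all share one. What the date marks is not said. Counting each result under each setting that leaves out no library, 103 values were unchanged in the call or within their limits, 34 turned direction, 27 lost their call and 3 counts moved. The cause of the changes was not tested, and without read counts it is unknown how depth limits each list.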
